A study of Mus musculus with 8 samples.

Results

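The pluripotency genes described here are 49 protein-coding genes of the naive and formative states of mouse embryonic stem cells, taken as a named list. The list and its groups by role were chosen with earlier results of these data known, so counts set beside an expectation are descriptions. A region was counted for a gene when its midpoint lay in the gene's RefSeq span, from its lower to its higher coordinate, extended by 20 kb at both ends. Of the 12594 regions with changed 5-hydroxymethylcytosine (5hmC) that the authors listed, 25 lay near 19 of the 49 genes. Of these, 14 came from the list of regions higher in the knockout and 11 from the list of lower regions.

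The study profiled 5hmC with CMS-IP, in which bisulfite turns the mark into cytosine 5-methylenesulphonate and an antibody recovers the fragments that carry it. Ogt encodes the O-GlcNAc transferase, an enzyme that binds the TET dioxygenases. All libraries came from Ogt fl/fl stem cells grown with LIF and knockout serum replacement on mitomycin-treated mouse embryonic fibroblasts: 2 CMS-IP and 2 input libraries from cells given 4-OHT for 6 days (Ogt iKO), and 2 of each from cells grown in parallel without it (control). Live cells were sorted with antibodies to CD90.2, which the labels give as the marker of the stem cells, and CD326, given as the marker for removing feeders; CD326 (EpCAM) is usually a marker of stem cells, so the roles may be exchanged in the labels. Treated cells were also sorted for YFP. The labels name neither the Cre driver nor the number of clones, and sorting for YFP and the 4-OHT itself were part of the treated arm alone. The deposited lists hold positions and no values per library. Depth, fold changes and replicate spread are therefore unknown, the stem cell identity could not be checked against marker genes, and no result below has a test over samples.

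Mouse embryonic stem cells sit in a naive state that LIF, acting through its receptor and Stat3, keeps in place together with a web of transcription factors around Pou5f1, Sox2 and Nanog. FGF signalling through ERK moves the cells out of it, to a formative state with factors of its own, in which naive factors go down. TET enzymes oxidise 5-methylcytosine, mostly at CG dinucleotides, to 5hmC, which in stem cells is found at enhancers, at the margins of CG-rich promoters and along gene bodies.

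Gene starts in or near some of these regions are shown by 3 windows of 300 bases, with every CG dinucleotide in capitals. Each runs from 250 bases before a RefSeq start to 50 after it (GRCm38.p6, which has the chromosomes of mm10). The first is the one window of the table that lies inside a region near a member: the start of the long noncoding RNA Gm52510 next to Rif1, all 300 bases of which fall in a lower region. The others are the start windows of Foxd3 and Klf2, the members whose lower regions lay closest outside their spans. Neither of these windows overlaps a region of either list, so their letters are not those of a changed region.

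Gm52510 (chr2:52131488-52131787, plus strand): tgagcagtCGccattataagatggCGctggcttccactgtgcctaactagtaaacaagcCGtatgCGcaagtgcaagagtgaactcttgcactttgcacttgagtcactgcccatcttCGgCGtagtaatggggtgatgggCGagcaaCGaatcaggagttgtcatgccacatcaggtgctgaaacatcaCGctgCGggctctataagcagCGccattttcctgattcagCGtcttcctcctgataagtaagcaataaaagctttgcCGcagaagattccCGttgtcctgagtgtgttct

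Foxd3 (chr4:99656049-99656348, plus strand): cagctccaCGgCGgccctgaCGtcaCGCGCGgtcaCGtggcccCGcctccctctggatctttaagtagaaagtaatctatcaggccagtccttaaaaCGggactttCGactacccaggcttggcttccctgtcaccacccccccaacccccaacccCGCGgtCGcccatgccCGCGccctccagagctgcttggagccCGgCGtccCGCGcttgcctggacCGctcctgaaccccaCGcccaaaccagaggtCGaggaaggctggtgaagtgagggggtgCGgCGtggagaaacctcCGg

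Klf2 (chr8:72318812-72319111, plus strand): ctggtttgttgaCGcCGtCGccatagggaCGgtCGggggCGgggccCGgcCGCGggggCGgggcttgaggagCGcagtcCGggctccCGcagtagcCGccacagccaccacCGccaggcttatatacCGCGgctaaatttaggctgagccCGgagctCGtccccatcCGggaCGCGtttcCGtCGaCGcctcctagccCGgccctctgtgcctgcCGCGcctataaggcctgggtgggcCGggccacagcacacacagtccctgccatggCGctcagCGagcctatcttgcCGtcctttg

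The windows hold 14, 25 and 32 CG dinucleotides. The median over all 32851 windows of the table was 7, and over the 45 windows of the 32 members that it covers it was 15. All windows means those of 27025 genes, noncoding ones such as Gm52510 among them, whereas every member is protein-coding. Member windows were not compared with those of protein-coding genes alone. Of the 45 member windows, 0 overlapped a region of either list, beside 0.320% (higher) and 0.186% (lower) of all windows. With shares this low, 45 windows are too few to tell members from other genes. The GC box, GGGCGG on either strand, the letters bound by Sp and Klf proteins, was present in 25 of the 45 member windows (55.6%) and in 35.7% of all windows. It is in the Klf2 window printed above and in neither of the other two. The octamer ATGCAAAT, read by Pou5f1, was found on either strand in 1 member window (Zfp42) and in 1.74% of all. Windows of 1 gene can overlap, so these shares describe letters and not independent genes.

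The number of members with a region was close to that of other genes. A region lay near 19 of the 49 members (38.8%) and near 36.2% of the 21725 other protein-coding genes. Higher regions lay near 13 members (26.5%, against 26.4% of other genes) and lower regions near 8 (16.3%, against 16.1%); Tfcp2l1 and Rif1 held both. Members are short, with a median span of 10.9 kb against 17.2 kb, and longer genes hold more regions. Other genes with a span within 20% of each member's own (502 to 2484 genes per member) gave an expectation of 16.2 members with a region, 11.3 with a higher and 7.15 with a lower region. Per Mb of window, higher regions were as frequent near members as near other genes (4.22 and 4.27), while lower regions numbered 3.32 and 2.00.

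Higher regions made up 56.0% of the 25 (95% Wilson interval 37.1 to 73.3%, counting error only), beside 68.1% of the 8977 regions near other protein-coding genes (67.2 to 69.1%) and 64.5% expected at like length. The interval of the members holds both of these shares. Counted as regions, the members held 14 higher regions where genes of like length gave 14.7, and 11 lower regions where they gave 8.07.

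**Figure D1:**
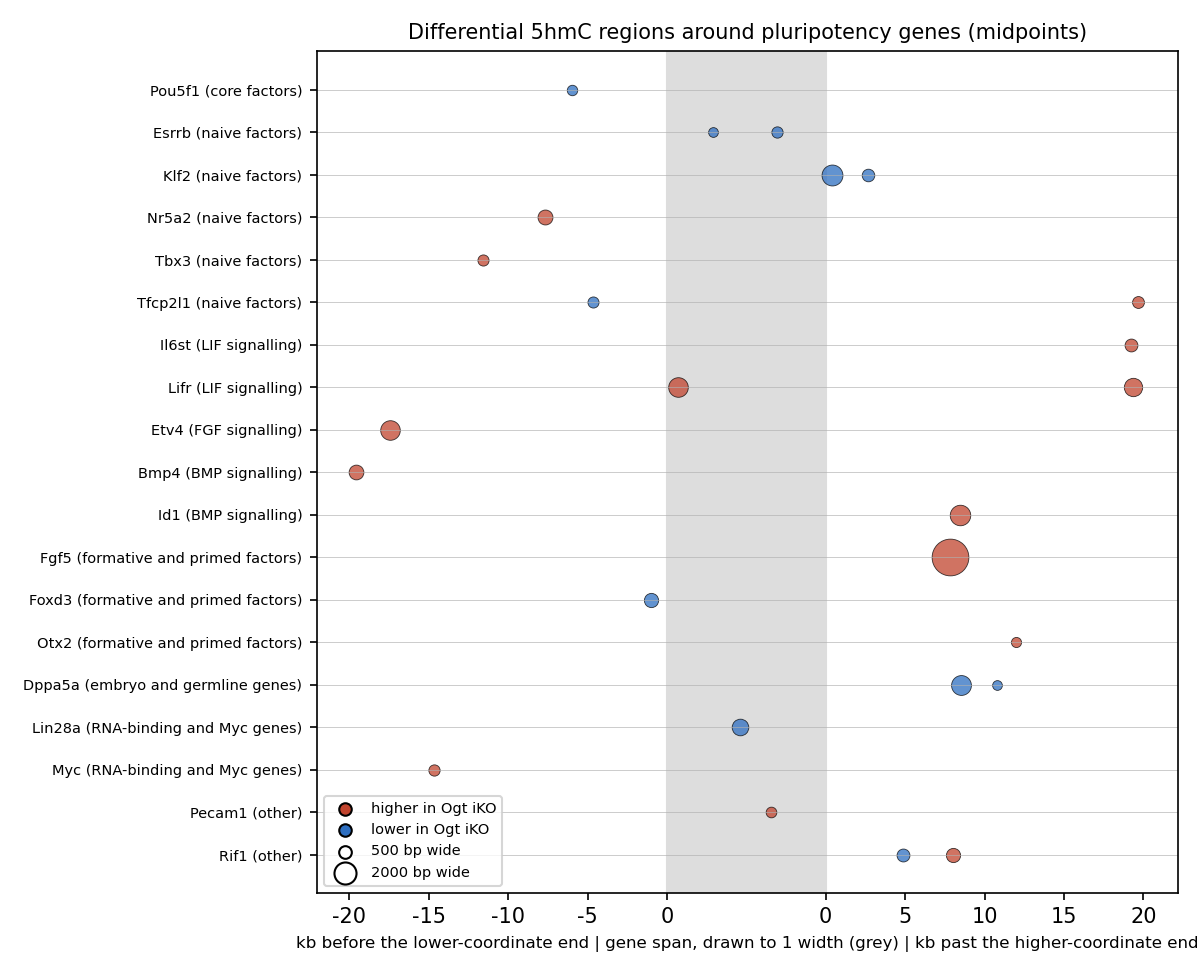
Midpoints of the 25 regions around the 19 pluripotency genes that hold one; the grey band is the gene span drawn to 1 width, the flanks are in kb, and the area of a point grows with region width. Lower regions (blue) sit in or close to the gene, with 8 of 11 inside the span or within 5 kb, whereas 12 of the 14 higher regions (red) lie more than 5 kb outside.

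Lower regions lay closer to the members than higher ones did. Among lower regions, 3 were inside a member's span and 5 within 5 kb outside it, so 8 of 11 (72.7%) were in or next to the gene. Among higher regions, 2 of 14 (14.3%) were, both of them inside a span. Near other protein-coding genes the shares of gene and region pairs within this distance were alike, 63.8% of lower and 68.5% of higher. Those genes were not matched for length, and members are shorter. Genes of like length gave 8.83 higher regions within 5 kb and 14.7 within 20 kb, and 4.63 and 8.07 lower ones. Outside the spans, the median distance from gene to midpoint was 4.77 kb for lower regions (0.391 to 10.8 kb, 8 regions) and 13.3 kb for higher regions (7.67 to 19.7 kb, 12 regions). For other genes these medians were 9.13 and 10.02 kb.

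With flanks of 5 kb, 2 higher and 8 lower regions were left, a higher share of 20% (Wilson interval 5.67 to 51.0%), against 68.9% near other genes. Genes of like length gave 8.83 higher and 4.63 lower regions at this flank, a higher share of 65.6%. In numbers of members, 2 of 49 held a higher region (4.08%, against 17.9% of other genes) and 6 a lower one (12.2%, against 10.3%). At like length, 6.96 members with a higher and 4.17 with a lower region were expected. Of these settings, 5 kb gave the lowest higher share. Within the spans alone it was 40% of 5 regions (Wilson interval 11.8 to 76.9%, which holds the 68.6% given by genes of like length), at 10 kb 37.5% of 16 and at 50 kb 61.9% of 42. The 5 regions more than 15 kb outside a member were all higher. These are few regions, counted from positions alone, and no test stands behind the contrast with distance.

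**Figure D2:**
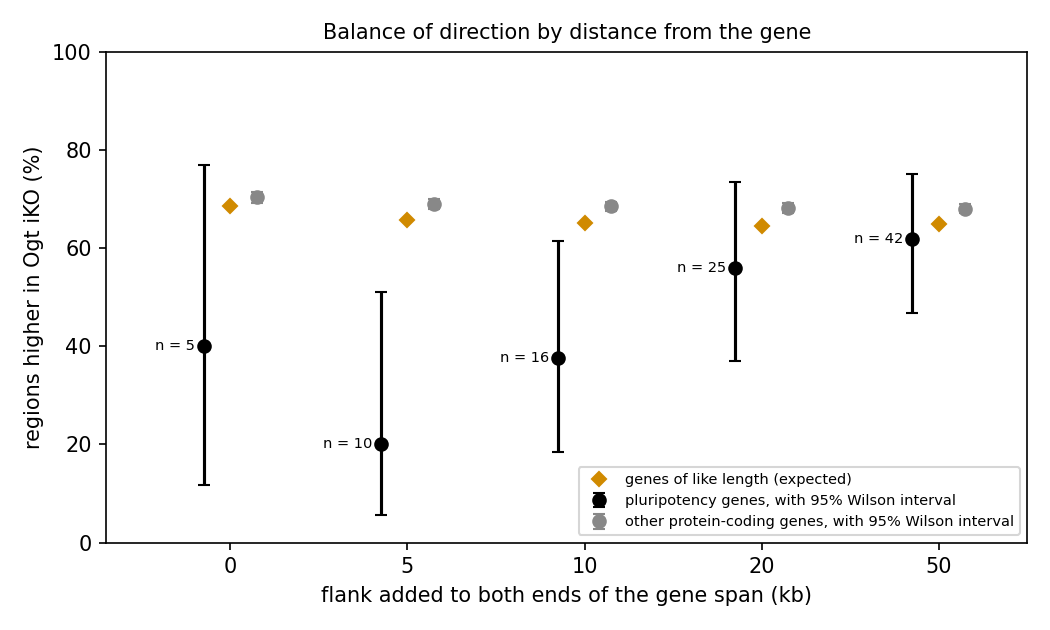
Share of regions higher in Ogt iKO (%), by the flank added to the gene span (kb), for the 49 pluripotency genes (black, 95% Wilson interval), for the other protein-coding genes (grey, same interval) and the share given by genes of like length (orange). At 5 kb the members stand at 20% of 10 regions and other genes at 68.9%; at 50 kb they stand at 61.9% and 68.0%.

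Of the core factors, Pou5f1 was the one with a region nearby. Pou5f1 encodes Oct4, the factor without which pluripotency is lost. Its single region was lower, 265 bp wide (chromosome 17, 35499896 to 35500160), with the midpoint 6.00 kb upstream of the gene (chromosome 17, 35506032 to 35510777, plus strand). The nearest higher region was 69.0 kb from the span. Sox2 (the DNA-binding partner of Oct4), Nanog and the zinc finger factor Sall4 held none: the closest regions to their spans were higher ones at 62.1, 135 and 152 kb. With 1 of 4 genes, the group matched the 1.04 expected at like length.

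Naive factors held 8 regions, 3 higher and 5 lower, near 5 of 10 genes, where 3.74 genes were expected at like length. Klf2, a Krüppel-like factor that sustains naive self-renewal, had 2 lower regions at its 3′ end. One of 1782 bp overlapped the end of the gene (chromosome 8, 72321154 to 72322935), and one of 491 bp followed 2.66 kb past it (72324070 to 72324560). The wider ranks 83 in width among the 4016 lower regions. The nearest higher region was 215 kb away.

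Esrrb, an orphan nuclear receptor that can stand in for Nanog, held 2 narrow lower regions inside its span of 161 kb, 200 bp (chromosome 12, 86407122 to 86407321) and 350 bp wide (86472165 to 86472514). They lay on either side of the second listed start of the gene, 14.4 kb before and 50.7 kb after it. The nearest higher region was 197 kb outside the gene.

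Tfcp2l1, a Stat3 target that supports the naive state, held both directions. A lower region of 330 bp lay 4.65 kb upstream of the span (chromosome 1, 118623107 to 118623436) and a higher one of 412 bp lay 19.7 kb downstream (118704654 to 118705065). The second is the region closest to the limit of the window.

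Nr5a2 and Tbx3 held higher regions alone. Nr5a2, a nuclear receptor that binds the Pou5f1 locus, had one of 791 bp 7.67 kb past its 3′ end (chromosome 1, 136834495 to 136835285). The T-box factor Tbx3 had one of 336 bp 11.6 kb below the lower-coordinate end of its span (chromosome 5, 119658779 to 119659114). Klf4, Klf5, Prdm14, Zfp42 and Gbx2 held none. Among them, the nearest regions were a higher one 45.2 kb from Prdm14, which represses FGF signalling, and a lower one 51.2 kb from Klf4. Gbx2, a homeobox target of LIF, was the member farthest from any region, with a higher one at 304 kb and a lower one at 307 kb.

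Of the LIF, FGF and BMP members, 5 held a region, each of them a higher one. The members with a lower region expected at like length were few in any case, 0.776, 0.688 and 0.236 in these groups. In the LIF pathway, with 2 of 4 genes (1.77 expected), Lifr, the ligand-binding receptor chain, held 2 higher regions, of 1532 bp within its span (chromosome 15, 7096993 to 7098524) and of 1316 bp 19.4 kb downstream (7216204 to 7217519). The first lay 31.8 kb before the nearest of the 2 listed starts. The second fell inside the neighbouring gene Egflam. Il6st, the shared chain gp130 that pairs with Lifr, had a higher region of 525 bp 19.2 kb past its 3′ end (chromosome 13, 112525797 to 112526321), inside Il31ra. Neither Stat3, the transcription factor they activate, nor Socs3, its feedback inhibitor, held one. A lower region stood 21.1 kb from Stat3, just outside the window.

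Among the FGF members, 1 of 5 held a region, with 1.58 expected at like length. Etv4, an ETS factor that is switched on by FGF signalling, had a higher region of 1530 bp 17.4 kb from its span (chromosome 11, 101751568 to 101753097), inside the neighbouring gene Dhx8. Its relative Etv5 had one 27.2 kb away, outside the window. The ligand Fgf4 and the feedback inhibitors Spry2 and Spry4 held none, with the nearest regions at 67.4 (lower), 37.9 (lower) and 48.5 kb (higher).

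Among BMP members, 2 of 3 held a region, with 0.545 expected at like length. Each of the 2 held a higher region, with 0.353 genes expected to hold one. The ligand Bmp4 had one of 766 bp 19.6 kb past its 3′ end (chromosome 14, 46363555 to 46364320), and a lower region 21.9 kb away was left out by the window. Id1, a BMP target that blocks differentiation factors, had one of 1700 bp 8.43 kb from its span (chromosome 2, 152744994 to 152746693), although Cox4i2 was nearer to it at 8.07 kb. Id3 was 142 kb from the nearest region.

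**Figure D3:**
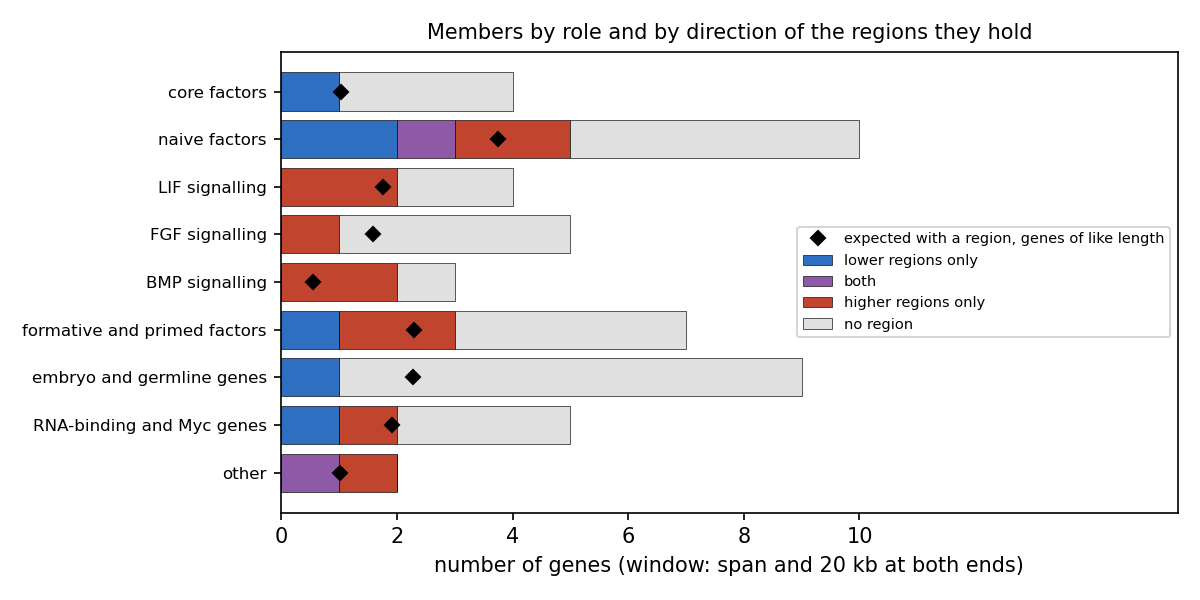
Numbers of pluripotency genes by role: with lower regions alone (blue), higher regions alone (red), both (purple) or no region (grey), in the span and 20 kb at both ends; diamonds give the number with a region expected from other genes of like length. The 5 LIF, FGF and BMP genes with a region hold higher ones, and 8 of 9 embryo and germline genes hold none.

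Formative and primed factors held 3 regions near 3 of 7 genes, with 2.30 expected at like length. Fgf5, the ligand that marks the exit from the naive state, was followed by the widest region near any member, a higher one of 5988 bp (chromosome 5, 98281854 to 98287841). It began 4821 bp past the gene (98254184 to 98277033, plus strand) and ranks 8 in width among the 8578 higher regions. No other protein-coding gene lay within 20 kb of its midpoint. Otx2, a homeobox factor of the formative state, had a higher region of 236 bp 11.95 kb upstream (chromosome 14, 48679479 to 48679714). Foxd3, a forkhead factor needed for the epiblast, had a lower one of 697 bp (chromosome 4, 99654975 to 99655671) that ended 628 bp before its start, short of the window printed above. Pou3f1, Zic2, Sall1 and Tcf7l1, which encodes the Wnt pathway repressor Tcf3, held none.

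The embryo and germline genes were the group with the lowest share, 1 of 9 with 2.28 expected at like length. Dppa5a, an RNA-binding protein gene of pluripotent cells, had lower regions of 1577 bp (chromosome 9, 78375904 to 78377480) and 200 bp (78378912 to 78379111). They lay 8.49 and 10.8 kb from its span, but 0.211 and 0.424 kb from Ooep, an oocyte gene next to it. Dppa2, Dppa3, Dppa4, Zscan4c, Tcl1, Fbxo15, Utf1 and Dnmt3l held none. Zscan4c, 1 of a cluster of near-identical genes, was 247 kb from the nearest lower and 1377 kb from the nearest higher region. How reads that map to several copies were handled is not given in the sources used here.

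Of the RNA-binding and Myc genes, 2 of 5 held a region, with 1.91 expected at like length. Lin28a, which blocks maturation of let-7 microRNAs, had a lower region of 1035 bp inside its span (chromosome 4, 134010152 to 134011186), at rank 390 in width in the lower list. Myc, a LIF target that drives growth, had a higher one of 349 bp 14.7 kb below the lower-coordinate end of its span (chromosome 15, 61970478 to 61970826). Lin28b, Trim71 and Mycn held none. Of the last members, Pecam1, an adhesion molecule on the surface of naive cells, held a higher region of 286 bp inside its span (chromosome 11, 106694210 to 106694495). Rif1, a regulator of replication timing, had a lower region of 530 bp 4.88 kb from the span (chromosome 2, 52131387 to 52131916). A higher one of 694 bp stood 8.02 kb from it (52134439 to 52135132). The lower of the pair covers the Gm52510 start window printed above, and the higher lay nearer to Neb, at 1.85 kb.

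Widths near members were set beside those of the whole lists. The median was 730 bp for the 14 higher regions (236 to 5988 bp) against 541.5 bp in the whole higher list, and 491 bp for the 11 lower regions (200 to 1782 bp) against 319.5 bp. Near other protein-coding genes the medians were 572 and 328 bp. Of the 14 higher and the 11 lower regions, 8 each were wider than the median of their own list. The 5 regions inside a span had a median of 350 bp, against 530 bp for all 25 and 453 bp for both lists together. Apart from Fgf5, the lower regions of Klf2 and Dppa5a stood highest in their list, at ranks 83 and 125.

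**Figure D4:**
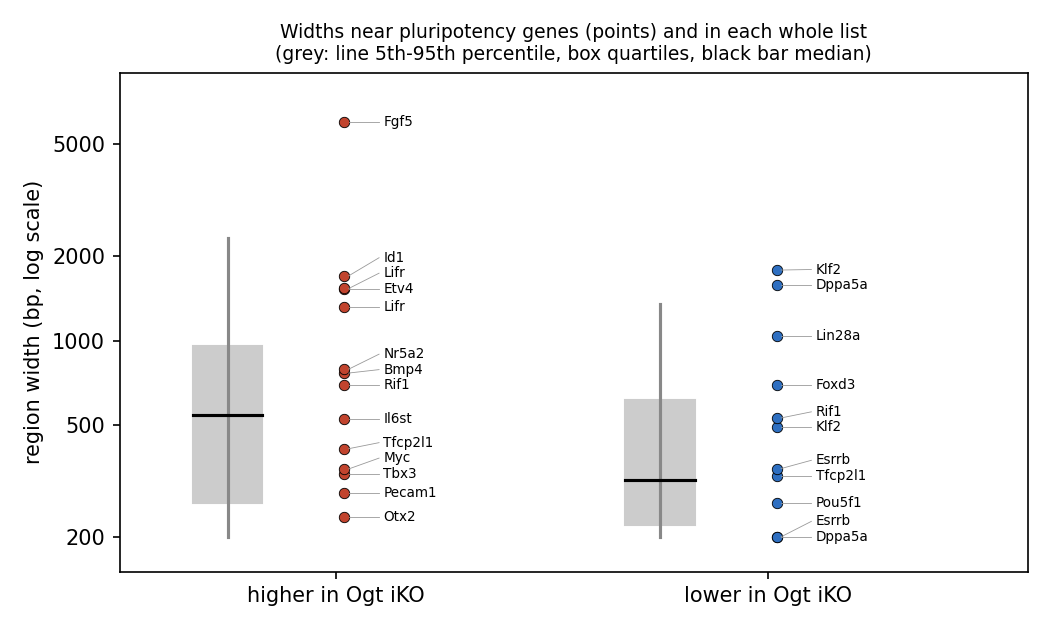
Width (bp, log scale) of each region near a pluripotency gene, with the gene's name, beside the distribution of the whole list of the same direction (grey line 5th to 95th percentile, box quartiles, bar median). Fgf5 stands alone at 5988 bp among the higher regions; Klf2 (1782 bp) and Dppa5a (1577 bp) are the widest of the lower ones.

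For 18 of the 25 regions the member was the nearest protein-coding gene, 9 of the 14 higher and 9 of the 11 lower. A member was the one protein-coding gene within 20 kb of the midpoint for 9 higher and 3 lower regions. The other 7 regions were nearer to, or inside, Cox4i2, Dhx8, Il31ra, Egflam, Neb or (2 regions) Ooep. Strand was known from the start windows for 16 of the regions. Of the 8 lower ones among them, 3 lay upstream, 3 inside and 2 downstream; of the 8 higher ones, 1, 1 and 6. Exons and introns were not separated, because the gene table gives spans alone.

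The 30 members without a region had a median span of 8.19 kb, against 15.6 kb for the 19 with one. The closest region to them lay at a median of 87.7 kb (21.1 to 304 kb), and 6 of them had one within 50 kb. When the nearest region was taken at any distance, it was a lower one for 16 of the 49 members (32.7%) and for 35.5% of other protein-coding genes. A higher one was nearest for 33 members (67.3%) and 60.2% of other genes. The remaining 944 other genes had a tie or lacked a distance, as did 0 members, so the shares are not on the same footing. The median distance from a member to the nearest lower region was 119 kb (other genes 146 kb), and to the nearest higher one 73.2 kb (other genes 75.5 kb). Absence from both lists leaves a gene's 5hmC undetermined, since the depth and the sites tested there are unknown.

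**Figure D5:**
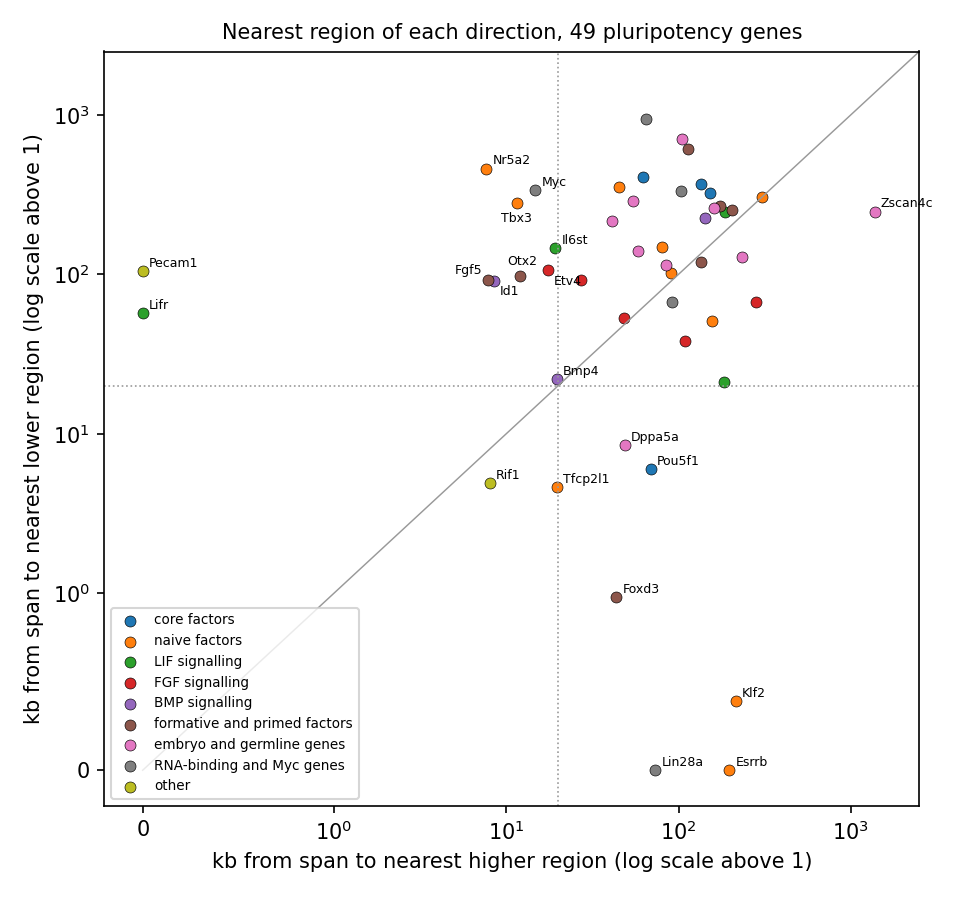
Distance in kb from the span of each of the 49 pluripotency genes to the nearest higher (horizontal) and nearest lower region (vertical), on axes that are logarithmic above 1 kb; dotted lines mark 20 kb and the diagonal equal distance. Genes under the diagonal (16) have a lower region closest; Esrrb, Lin28a, Klf2 and Foxd3 form the group with a lower region inside or within 1 kb of the gene.

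The pathways around these genes were read from a list of 47 further genes of LIF, FGF, BMP and Wnt signalling and of the pluripotency network. Regions lay near 21 of them (44.7%), where 21.1 were expected at like length, since these genes are long (median 57.0 kb). They held 21 higher and 10 lower regions, a higher share of 67.7%. Of the BMP genes, 5 of 7 held a region, with 3.60 expected at like length, 2.77 with a higher and 1.55 with a lower one. They were the receptor genes Bmpr1a and Bmpr2, the signal transducers Smad4 and Smad5, and Id2, each with 1 higher region, and Bmpr2 also held a lower one. A region lay near 2 of 8 LIF genes (3.49 expected at like length), 5 of 10 FGF genes (4.44) and 4 of 8 Wnt genes (3.96). It lay near 4 of 10 network factors (3.74) and 2 of 5 formative and primed genes (2.56), with Lef1 also counted as a Wnt gene. In the FGF list, the kinase gene Mapk3 had 1 lower region, and the receptor gene Fgfr2, the kinase gene Map2k1 and the inhibitor gene Spred1 each had 1 higher. In the LIF list, the receptor-bound kinase gene Jak1 held 2 higher and 1 lower, and Pim1, a kinase gene downstream of Stat3, 1 lower. Of the Wnt genes, Gsk3b, the kinase that marks β-catenin for destruction, held 3 higher and 1 lower, Ctnnb1 (β-catenin) 1 of each, Axin1 1 higher and Lef1 1 lower. Among network factors Jarid2 held 1 higher and 2 lower, Flcn 2 higher and Tead4 1 higher. Dnmt3a held 1 higher region. Within 5 kb, this list held 11 higher and 9 lower regions, with 15.9 and 7.36 expected at like length, a balance that moved the same way as that of the members but less far; the difference between the lists was not tested.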

How the data were processed

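CMS-IP and input libraries of 4 groups of 2 samples were made by the authors; groups and replicate numbers come from the titles. The authors deposited 2 BED lists of regions, higher and lower in the knockout, whose other values (start and end on mm10) carry no score, fold or value per sample. Their names spell the knockout OgtiTKO, taken here to mean the labelled Ogt iKO cells; every direction rests on this reading. The submitters' processing notes name Bismark and MACS2, with no version or role. The differential test, its threshold, the use of inputs and spike-ins, and whether replicates were pooled are not given in the sources used here. The smallest gap between regions was 1001 bp and the smallest width 200 bp.

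From these lists, midpoints (starts read as 0-based, printed 1-based) were placed in RefSeq spans of 21774 protein-coding genes (GRCm38.p6, unplaced sequence left out). All 49 symbols matched. Expected counts sum, over members, the share or mean number among other genes of a span within 20%. Intervals are 95% Wilson intervals over regions, which are not replicates. No p-value was computed. Start windows, with strand, were available for 32 members; positions against strand use those. The members, roles and pathway list were chosen with earlier results of these data known. Every member with a region is named, and every pathway gene with one except 2 that are not reported here. Alternatives were other flanks, any overlap, wide regions, nearest gene, merged regions and other length limits. The lookup was tested on simulated data and against a direct search. Python 3.11.15, numpy 2.4.6, pandas 2.3.3, scipy 1.17.1 and matplotlib 3.10.9 were used.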

Additional observations from a re-analysis of the deposited data

How the results depend on the processing

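Of 44 values recomputed under other settings, 16 were marked as moved and 28 were not. The 28 still include wide changes. Members with a region numbered 13 at 10 kb and 25 at 50 kb, beside 19 at 20 kb. The median width was 350 bp at 0 kb, beside 530 bp. The flank moved most counts, by construction. Members with a region numbered 19 at 20 kb, 4 at 0 kb and 8 at 5 kb; regions near members numbered 25 at 20 kb, 5 at 0 kb, 10 at 5 kb, 16 at 10 kb and 42 at 50 kb. The count expected from genes of like length moved from 16.2 to 7.40, 9.96 and 25.2 at 0, 5 and 50 kb, and pathway genes with a region from 21 to 8, 12 and 32. The share of higher regions was 56.0% at 20 kb, 40% at 0 kb, 20% at 5 kb, 37.5% at 10 kb and 61.9% at 50 kb. Of these, the 5 kb share alone fell outside the Wilson interval at 20 kb (37.1 to 73.3%). That interval measures counting error and not the effect of the flank, and the interval at 5 kb (5.67 to 51.0%) overlaps it. Regions at or above the median width (453 bp) left 15 near 12 members, with 9.65 expected. Autosomes alone moved nothing, as no member is on X or Y. Any overlap left 25 regions near 19 members and raised those inside a span from 5 to 6. Merging close regions gave 22 and counting nearest genes gave 18, with higher shares of 59.1% and 50.0%. No paired analysis was possible because the lists hold no values per sample; no replicate could be left out for the same reason. Depth limits are unknown.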
